A study of Homo sapiens with 4 samples.

Results

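Activator protein 1 (AP-1) is a family of transcription factor dimers, and 9 genes that encode its subunits are described here in prostate cancer cells given morusin, a flavonoid from mulberry. They are JUN, JUNB and JUND of the JUN family, FOS, FOSB, FOSL1 and FOSL2 of the FOS family, and the related factors ATF3 and BATF3. Each symbol matched a single Ensembl gene, so the 9 genes are 9 of the 60617 rows of the deposited table. The groups were PC3 cells with 46 µM morusin for 6 h, untreated PC3 cells, 22Rv1 cells with 75 µM morusin for 6 h and untreated 22Rv1 cells, with 1 RNA-seq library each. PC3 is a prostate adenocarcinoma line from a bone metastasis that was grown in F12 medium, and 22Rv1 is a xenograft-derived prostate carcinoma line that was grown in RPMI medium. Dose, medium and line therefore cannot be told apart, and the labels do not say whether untreated cells received a vehicle.

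AP-1 proteins pair through a leucine zipper and touch DNA with a basic region, which gives the class its name, bZIP. JUN proteins can pair with each other or with FOS proteins, whereas FOS proteins need a JUN partner. Stress kinases of the JNK and p38 families act on JUN and ATF proteins, and growth factor signalling through ERK induces FOS within minutes and stabilises the FOS and FOSL1 proteins. JUN and FOS are immediate early genes, with transcripts that are made quickly and decay quickly, and JUN protein can act on its own promoter. FOSL1 (FRA-1) is known in epithelial cancers for its part in invasive, mesenchymal-like states, JUNB and JUND are often weaker activators than JUN, and ATF3 is a stress-induced factor that frequently represses.

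The promoters of JUN, ATF3, JUND and FOS are shown because these 4 genes were at least 2-fold higher in a treated line. Each line gives the 250 bases before the RefSeq start on GRCh38.p14, and capitals mark every motif found on either strand. The motifs searched were the AP-1 site TGANTCA, the cAMP response element (CRE) TGACGTCA, the CRE-like site TGACATCA that is known from JUN, the core TGACGT that every CRE contains, the heat shock pair GAANNTTC, the TATA box TATAAA, the box CCAAT (found in 32.0% of windows) and, by its name alone, the CArG box that binds serum response factor.
JUN, chr1:58784048-58784297, minus strand: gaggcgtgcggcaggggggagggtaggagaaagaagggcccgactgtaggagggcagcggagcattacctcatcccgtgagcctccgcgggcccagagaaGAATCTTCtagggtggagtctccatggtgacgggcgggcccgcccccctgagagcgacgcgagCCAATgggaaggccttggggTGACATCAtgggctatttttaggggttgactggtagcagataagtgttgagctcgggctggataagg
ATF3, chr1:212565157-212565406, plus strand: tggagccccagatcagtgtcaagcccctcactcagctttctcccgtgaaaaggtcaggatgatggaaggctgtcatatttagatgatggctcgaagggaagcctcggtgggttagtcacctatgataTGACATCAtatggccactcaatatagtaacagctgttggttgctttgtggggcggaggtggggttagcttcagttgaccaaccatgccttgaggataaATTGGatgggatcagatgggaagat
JUND, chr19:18281623-18281872, minus strand: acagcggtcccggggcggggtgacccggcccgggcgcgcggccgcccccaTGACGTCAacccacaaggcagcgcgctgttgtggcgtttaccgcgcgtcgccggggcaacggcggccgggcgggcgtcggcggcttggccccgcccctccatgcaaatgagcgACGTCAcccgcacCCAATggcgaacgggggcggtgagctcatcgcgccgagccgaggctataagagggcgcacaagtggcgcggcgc
FOS, chr14:75278578-75278827, plus strand: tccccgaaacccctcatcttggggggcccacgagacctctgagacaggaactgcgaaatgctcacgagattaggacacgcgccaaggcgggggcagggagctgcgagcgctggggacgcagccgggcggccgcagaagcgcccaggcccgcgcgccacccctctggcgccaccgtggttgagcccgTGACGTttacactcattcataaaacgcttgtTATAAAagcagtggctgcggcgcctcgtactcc

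JUN and ATF3 both held TGACATCA, at -67 to -60 and at -123 to -116 from the start, a match present in 2.37% of 35116 promoter windows of the same length. JUN also held the heat shock pair GAATCTTC at -150 to -143, found in 5.78% of windows. JUND held a full CRE at -200 to -193 (1.65% of windows) and a second TGACGT core, on the other strand, at -87 to -82. FOS held TGACGT at -64 to -59 and TATAAA, found in 10.7% of windows, at -33 to -28. FOSB and FOSL2, whose promoters are not shown, held the same core at -60 to -55 and at -66 to -61, and 7.10% of windows hold it. The AP-1 site TGANTCA, present in 6.57% of windows, was in none of the 8 windows of these genes, and neither was the CArG box, present in 1.16%. Only the 250 bases before each start were searched, so sites further upstream would not have been found. A match describes letters and is not evidence of binding. The second start of ATF3 had only a TATAAA match, JUNB had TATAAA and CCAAT, and FOSL1 and BATF3 were not among the promoters. By the GENCODE 29 annotation JUN and FOSL2 start further upstream, so that their windows lie inside the annotated genes. The second window of ATF3 lies inside its gene too. The deposited values are per gene, so which start of ATF3 was used in these cells is unknown. The windows of FOS and FOSB and the first window of ATF3 overlap the annotated gene in part.

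Levels are in FPKM, fragments per transcript length and per library depth, which allows comparison between genes. Each library's FPKM summed to between 335458 and 408628, and the depth inferred from the steps between low values was 19100000 to 40600000 read pairs, which is a rough estimate. Changes are log2 of treated FPKM + 1 over untreated FPKM + 1, which understates the change of genes at low levels, and the error given with them is an estimated counting error only. The 22Rv1 library with morusin stood apart in small nuclear RNA, with a summed 1199.5 FPKM against 41.8 FPKM in untreated 22Rv1, and 58.3 against 34.4 FPKM in treated and untreated PC3. Summed mitochondrial transcripts were lower in the treated library of both lines, at 12239 against 18563.5 FPKM in PC3 and 15404.8 against 26131.6 FPKM in 22Rv1, and the part of either difference in the AP-1 values was not tested. Markers fitted the line labels in part. All 7 prostate luminal markers reached 1 FPKM in both 22Rv1 libraries and 2 of 7 did in both PC3 libraries, HOXB13 and TMPRSS2. Epithelial markers reached 1 FPKM for 3 of 4 genes in PC3 and all 4 in 22Rv1, with CDH1 at 0.144 and 0.19 FPKM in treated and untreated PC3. Of 8 leukocyte, fibroblast and endothelial markers, 3 reached 1 FPKM in each PC3 library and 0 in each 22Rv1 library, their summed level was 42.6 FPKM in treated against 30.5 in untreated PC3 and 1.06 against 1.16 in 22Rv1, CD68 made up most of the PC3 sums, and each library had 3 of the 8 at 0, of which VWF was at 0 in all 4.

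In PC3, 4 of the 9 genes, JUN, ATF3, JUND and FOS, had a 2-fold or higher level with morusin and 0 a level lower by as much, where 1.22% of 12898 genes used were that much higher and 2.64% that much lower. In 22Rv1, 2 of 9, JUN and FOS, passed 2-fold upwards and 0 downwards, against 3.40% of 13337 genes higher and 1.02% lower. A gene was used in a line if either of its libraries reached 1 FPKM, which left out FOSB in PC3 and FOSB and FOSL1 in 22Rv1. FOS was used in both lines only through its treated library. With 1 library per group none of these differences has a replicate check, and no p-value is given within a line. The median change over all 9 AP-1 genes was 0.88 in PC3 and 0.36 in 22Rv1, and that of all genes used was -0.05 in PC3 and -0.01 in 22Rv1. Rescaling each library to the mean FPKM sum moved it to -0.14 and -0.18 and changed the split of the 2-fold genes in 22Rv1 from 76.9% to 41% higher, while the counts of AP-1 genes stayed at 4 in PC3 and 2 in 22Rv1. With 5 in place of 1 added, FOS fell short of 2-fold in both lines (log2 changes of 0.40 in PC3 and 0.97 in 22Rv1), which left 3 genes in PC3 and 1 in 22Rv1.

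**Figure D1:**
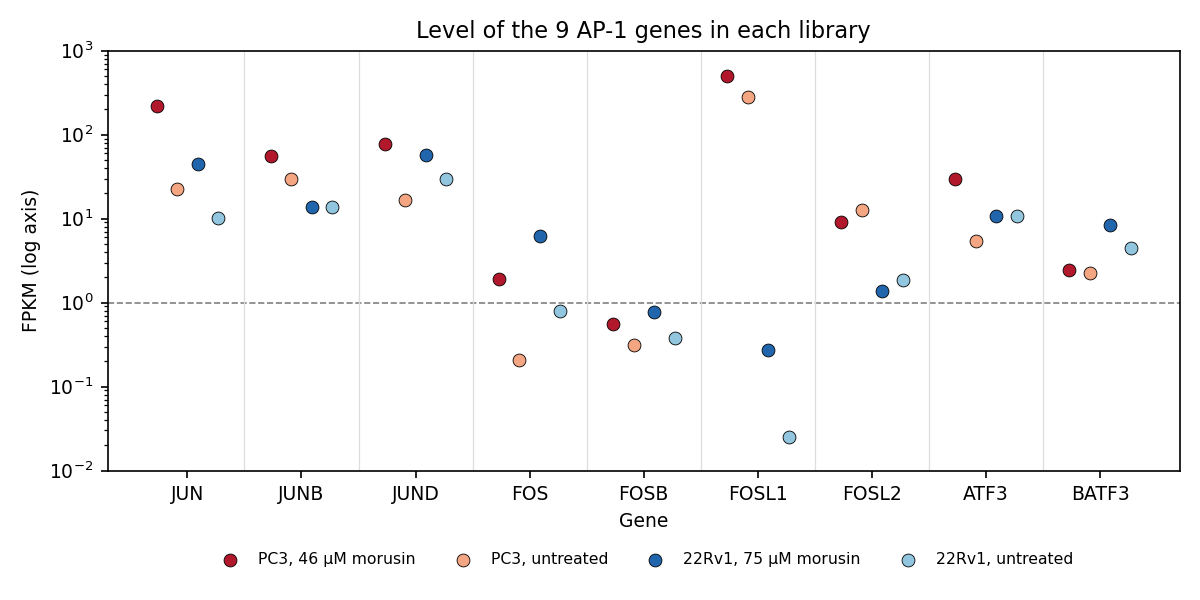
FPKM on a log axis of each AP-1 gene in the 4 libraries, 1 point per library, with the dashed line at 1 FPKM. JUN and FOS points of treated libraries lie above the untreated ones in both lines, and FOSL1 is at 499 and 285 FPKM in PC3 but under 1 FPKM in 22Rv1.

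JUN, the founding member and strongest activator of its family, was at 221 FPKM in treated and 22.7 FPKM in untreated PC3, and at 44.5 FPKM in treated and 10.3 FPKM in untreated 22Rv1. The treated library was higher in both lines, and treated 22Rv1 exceeded untreated PC3. Its log2 change was 3.23 ± 0.03 (counting error) in PC3, the ninth highest value of the line, and 2.01 ± 0.05 in 22Rv1, at rank 50 from the top. The gene is a single exon (ENSG00000177606, GRCh38 chromosome 1, 58780788 to 58784327, minus strand), and the estimated read pairs behind these values were 856 to 22431 per library.

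JUND, a JUN protein that most cells make without stimulation, was at 76.9 FPKM in treated and 16.7 FPKM in untreated PC3. In 22Rv1 it was at 56.8 FPKM in treated and 29.3 FPKM in untreated cells. The treated library was higher in both lines, with a log2 change of 2.14 ± 0.04 in PC3 and 0.93 ± 0.05 in 22Rv1, which is just under 2-fold. The gene is a single exon (ENSG00000130522, chromosome 19, 18279760 to 18281622, minus strand). JUND was the only JUN gene whose untreated level was lower in PC3 than in 22Rv1.

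JUNB, which can restrain JUN activity, was at 55.9 FPKM in treated and 29.9 FPKM in untreated PC3, and at 13.6 FPKM in both the treated and the untreated 22Rv1 library. Its log2 change was 0.88 ± 0.04 in PC3 and 0.00 ± 0.08 in 22Rv1, and -0.18 in 22Rv1 after rescaling, which moves the median of all genes as far. On chromosome 19 the single exon of JUNB (ENSG00000171223, 12791496 to 12793315, plus strand) lies within the annotated span of HOOK2 on the opposite strand. HOOK2 was at 11.6 FPKM in treated and 14.1 FPKM in untreated PC3, and at 43.5 and 21.5 FPKM in treated and untreated 22Rv1. No source states whether strand was used in counting, so reads from the overlap cannot be assigned with certainty.

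The 3 JUN genes are intronless, and single-exon genes as a class were looked at beside them. Of 180 single-exon protein-coding genes used in PC3, 9.44% were higher by 2-fold or more and 3.89% lower by 2-fold or more, with a median of -0.14. In 22Rv1 10.9% of 192 were that much higher and 5.73% that much lower, with a median of -0.12. These shares exceed those of all genes in both directions, and their part in the JUN values was not tested.

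The JUN family sum was 354 FPKM in treated and 69.4 FPKM in untreated PC3, a ratio of 5.10, and 115 FPKM in treated and 53.2 FPKM in untreated 22Rv1, a ratio of 2.16. JUN itself made up 62.5% of the sum in treated and 32.8% in untreated PC3, and 38.7% in treated and 19.4% in untreated 22Rv1. JUNB made up 15.8% in treated and 43.1% in untreated PC3, and 11.9% in treated and 25.5% in untreated 22Rv1. The leading JUN transcript was thus JUN in treated PC3, JUNB in untreated PC3 and JUND in both 22Rv1 libraries.

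**Figure D2:**
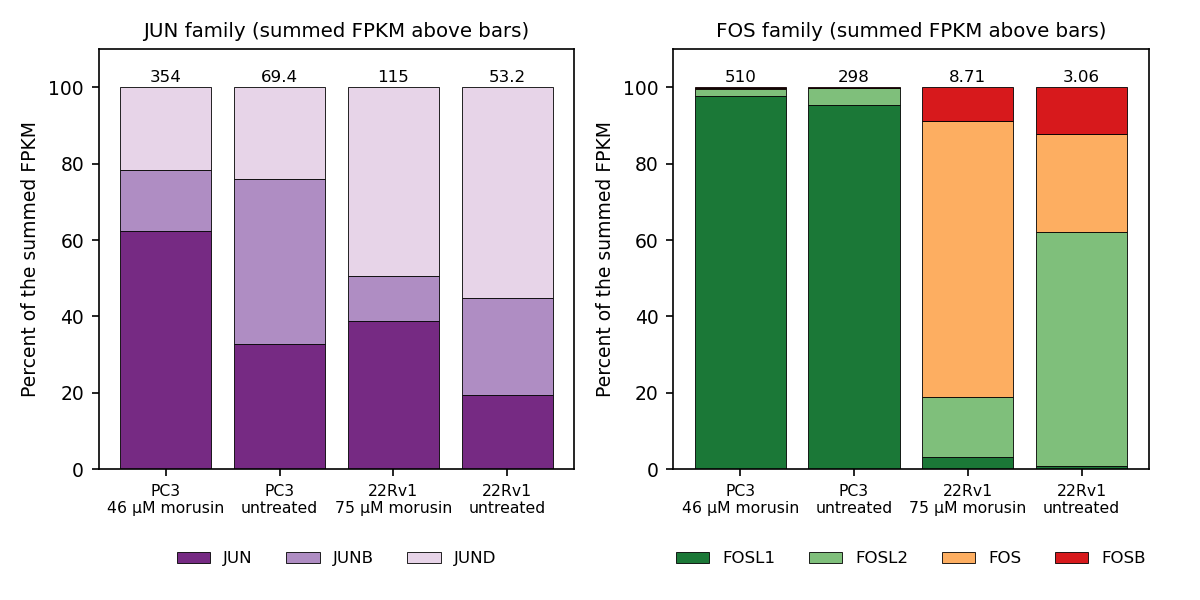
Percent of the summed FPKM of the JUN family (left) and of the FOS family (right) taken by each gene, 1 bar per library, with the summed FPKM above each bar. JUN has a larger share in the treated library of each line, FOSL1 holds over 95% of the FOS family in PC3, and FOS leads only in treated 22Rv1, at 72.3%.

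FOS, the founding member of its family, was at 1.89 FPKM in treated and 0.208 FPKM in untreated PC3. In 22Rv1 it was at 6.30 FPKM in treated and 0.784 FPKM in untreated cells. The treated library was higher in both lines, and all 4 levels were low beside those of the JUN genes. The log2 change was 1.26 ± 0.10 in PC3 and 2.03 ± 0.13 in 22Rv1, and the ratio of FPKM without the added 1 was 9.11 and 8.03. These values rest on an estimated 117 and 18.2 read pairs in treated and untreated PC3 and 260 and 39.7 in treated and untreated 22Rv1. The gene has 4 exons in its longest transcript (ENSG00000170345, chromosome 14, 75278774 to 75282230, plus strand). The FOS transcript is known for AU-rich decay signals, and its 3′ untranslated region (806 bases in the longest GENCODE 29 transcript) held 5 AUUUA pentamers. Only 4.53% of 11984 expressed protein-coding genes had as many per kilobase, but 33.6% had at least 5 in total. Of the other 8 AP-1 genes JUNB came nearest by density, with 2 in 500 bases. FOSL2 had more in total, with 9 in 4864 bases.

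FOSL1 was the most abundant of the 9 transcripts in PC3 and nearly absent from 22Rv1. The gene has 4 exons (ENSG00000175592, chromosome 11, 65892049 to 65900573, minus strand). It was at 499 FPKM in treated and 285 FPKM in untreated PC3, above 99.3% and 99% of the genes with at least 1 FPKM in the library. In 22Rv1 it was at 0.276 FPKM in treated and 0.0251 FPKM in untreated cells, an estimated 8.80 and 0.981 read pairs, too few for a ratio to be informative. The log2 change was 0.81 ± 0.01 in PC3, where the counting error is small because the level is high, and the change stayed below 2-fold.

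FOSL2 (FRA-2), the other FOS-related antigen, had the lower level in the treated library of both lines. The gene has 4 exons (ENSG00000075426, chromosome 2, 28392448 to 28417312, plus strand), and both transcripts that overlap it stayed at or below 0.126 FPKM in all 4 libraries. It was at 9.13 FPKM in treated and 12.9 FPKM in untreated PC3 and at 1.37 FPKM in treated and 1.87 FPKM in untreated 22Rv1, with log2 changes of -0.45 ± 0.04 and -0.28 ± 0.08. FOSB, an immediate early gene like FOS, stayed below 1 FPKM everywhere, at 0.552 FPKM in treated and 0.315 FPKM in untreated PC3 and at 0.765 FPKM in treated and 0.376 FPKM in untreated 22Rv1. FOSB (ENSG00000125740, 45467995 to 45475179, plus strand, 4 exons) lies within the span of ERCC1 on the opposite strand of chromosome 19, and ERCC1 was at 24.8 FPKM in treated and 22.1 FPKM in untreated PC3 and at 14.7 FPKM in treated and 9.73 FPKM in untreated 22Rv1, so FOSB values are uncertain.

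The FOS family sum was 510 FPKM in treated and 298 FPKM in untreated PC3, and 8.71 FPKM in treated and 3.06 FPKM in untreated 22Rv1. FOSL1 supplied 97.7% of it in treated and 95.5% in untreated PC3, against 3.17% in treated and 0.82% in untreated 22Rv1. In 22Rv1 the leading FOS transcript was FOS with morusin (72.3% of the sum, against 25.7% untreated) and FOSL2 without (15.7% of the sum in treated, against 61.2% in untreated cells). Summed JUN transcripts per summed FOS transcripts came to 0.694 in treated and 0.233 in untreated PC3, and to 13.2 in treated and 17.4 in untreated 22Rv1. The ratio was thus higher in treated than in untreated PC3 and lower in treated than in untreated 22Rv1.

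ATF3 was at 29.5 FPKM in treated and 5.40 FPKM in untreated PC3, and at 10.7 FPKM in treated and 10.8 FPKM in untreated 22Rv1. Only the PC3 pair differed beyond the counting error, with a log2 change of 2.25 ± 0.07 in PC3, at rank 37 from the top, and -0.009 ± 0.09 in 22Rv1, where rescaling gave -0.19 and median centring 0.00186. The difference between these changes, 2.26, was the widest among the 9 genes. BATF3, a small bZIP factor without an activation domain that is best known from dendritic cells, showed the opposite order. It was at 2.41 FPKM in treated and 2.24 FPKM in untreated PC3 and at 8.37 FPKM in treated and 4.53 FPKM in untreated 22Rv1, with log2 changes of 0.07 ± 0.16 and 0.76 ± 0.15. Both lie on chromosome 1, ATF3 (ENSG00000162772, 4 exons) at 212565334 to 212620777 on the plus strand and BATF3 (ENSG00000123685, 3 exons) at 212686418 to 212699985 on the minus strand.

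**Figure D3:**
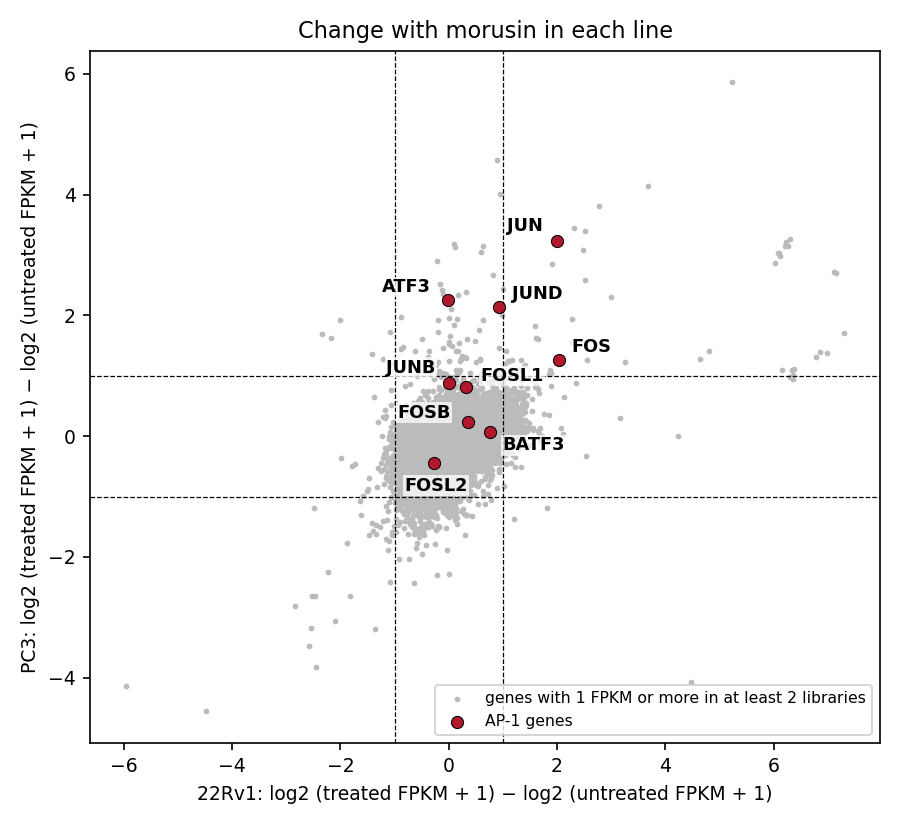
Log2 change with morusin of FPKM + 1 in 22Rv1 (x axis) and PC3 (y axis) for genes that reached 1 FPKM in 2 or more libraries (grey) and the 9 AP-1 genes (red), with dashed lines at 2-fold. JUN and FOS lie past 2-fold in both lines, JUND and ATF3 in PC3 alone, and the other 5 within 2-fold in both.

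The changes of PC3 minus 22Rv1 were 1.22 for JUN, 1.21 for JUND, 0.88 for JUNB and 0.49 for FOSL1, and they were negative for FOS (-0.77), BATF3 (-0.69), FOSL2 (-0.17) and FOSB (-0.12). Such differences leave no residual degrees of freedom and were not tested. Which of them come from the line and which from the dose or the medium cannot be told apart.

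A response shared by the lines could be tested with limma on log2 of FPKM + 1. Line and treatment were the terms over the 4 libraries, which leaves 1 residual degree of freedom. That degree of freedom is the difference between the changes of the lines, and limma supplements it from all 13971 genes tested. It is not a spread between replicates. Of the 8 AP-1 genes tested, 2 were called higher and 0 lower at an adjusted p below 0.05, where 0.329% of all genes were called higher and 0.236% lower. At an unadjusted p below 0.05 by limma there were 5 of the 8, all higher, and 2587 of all 13971 genes in either direction. JUN rose by a mean log2 change of 2.62 (SE 0.27, Benjamini-Hochberg adjusted p = 0.00327 by limma), higher in the treated library of 2 of 2 lines. FOS was called at 1.65 (SE 0.22, limma adjusted p = 0.0135), but it passed the filter of 1 FPKM in 2 libraries only through its treated libraries, so it entered the test by the group where it is high and the call is no independent support. JUND missed the threshold, at 1.53 (SE 0.27, limma adjusted p = 0.0581), though it was higher in 2 of 2 lines. ATF3 was at 1.12 (SE 0.43, limma adjusted p = 0.219), FOSL1 at 0.56 (SE 0.21, limma adjusted p = 0.214) and FOSL2 at -0.36 (SE 0.22, limma adjusted p = 0.395). Adjusted p by limma was 0.356 for JUNB and 0.379 for BATF3. The call for FOS was lost with 5 in place of 1 added to the FPKM (limma adjusted p = 0.141; over the alternatives with the line term it ranged from 1.37e-07 to 1), and both calls were lost without the filter on low values.

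Untreated PC3 and untreated 22Rv1 were compared in the same way. Of the 7 AP-1 genes that reached 1 FPKM in an untreated library, 4 passed 2-fold towards PC3 and 0 towards 22Rv1, where 19.2% and 19.8% of 14352 genes did. FOSL1 stood 8.12 log2 units higher in PC3 (285 against 0.0251 FPKM), the ninth highest value of all genes, and FOSL2 2.27 (12.9 against 1.87 FPKM). JUN was 1.07 higher (22.7 against 10.3 FPKM) and JUNB 1.08 higher (29.9 against 13.6 FPKM). JUND, ATF3 and BATF3 were lower in PC3 than in 22Rv1 by under 2-fold, at -0.77, -0.88 and -0.77. With 5 added to the FPKM only FOSL1 and FOSL2 remained at least 2-fold apart.

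The order of the levels shows how the composition changed. In treated PC3 it ran FOSL1, JUN, JUND, JUNB, ATF3, FOSL2, BATF3, FOS, FOSB, from 499 to 0.552 FPKM, and in untreated PC3 FOSL1, JUNB, JUN, JUND, FOSL2, ATF3, BATF3, FOSB, FOS, from 285 to 0.208 FPKM. In treated 22Rv1 it ran JUND, JUN, JUNB, ATF3, BATF3, FOS, FOSL2, FOSB, FOSL1, from 56.8 to 0.276 FPKM, and in untreated 22Rv1 JUND, JUNB, ATF3, JUN, BATF3, FOSL2, FOS, FOSB, FOSL1, from 29.3 to 0.0251 FPKM. With 1 library each, the spread that neighbours in these orders would need to exceed is unknown.

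Of the pathway around AP-1, 4 lists were counted. They were chosen with earlier results of these data known, so their counts are no independent support. In the list of genes known as AP-1 targets, 5 of 34 used genes were at least 2-fold higher and 0 lower in PC3. Of all genes used, 1.22% were that much higher and 2.64% that much lower. The target median was 0.34 where that of all genes was -0.05. Of the 34, 25 were above 0, as were 5699 of all 12898 genes used. The 5 targets past 2-fold were the MAP kinase phosphatases DUSP5 (181 against 19.1 FPKM) and DUSP1 (57.9 against 5.71 FPKM), the growth factor CSF2 (55.6 against 11.3 FPKM), the stress sensor GADD45A (90.2 against 23.1 FPKM) and the chemokine CXCL8 (765 against 258 FPKM). In 22Rv1 0 of 19 used targets were at least 2-fold higher or lower, with a median of 0.01, and CSF2 and CXCL8 were listed at 0 in both libraries. DUSP1 was at 4.67 FPKM in treated and 4.24 FPKM in untreated 22Rv1, GADD45A at 11.2 and 6.83 FPKM, and DUSP5 at 0.151 and 0.0808 FPKM. Of the 19 used targets, 10 were above 0 and 9 below. Over all genes used in 22Rv1, 3.40% were at least 2-fold higher and 1.02% lower. The same list differed between the untreated lines, with 28 of 34 genes at least 2-fold higher in PC3 and 4 at least 2-fold higher in 22Rv1. Of all 14352 genes used there, 19.2% were that much higher in PC3 and 19.8% in 22Rv1. The list median was 3.46 where that of all genes was -0.11.

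Other bZIP factors can pair with AP-1 subunits or share their sites. Of 29 used genes of this list, 2 were at least 2-fold higher and 1 lower in PC3. Over all genes used, 1.22% were that much higher and 2.64% lower in PC3, and 3.40% and 1.02% in 22Rv1. The same shares stand beside the upstream and turnover counts below. DDIT3 (CHOP) was at 82.1 FPKM in treated and 8.33 FPKM in untreated PC3, NFIL3 at 8.47 and 2.58 FPKM, and the small MAF protein MAFG at 4.23 and 9.89 FPKM. In 22Rv1 0 of 28 passed 2-fold in either direction, and the median was 0.06 in PC3 and -0.05 in 22Rv1. Of the kinases and factors upstream of AP-1, such as JNK, p38, ERK and serum response factor, 0 of 32 in PC3 and 0 of 30 in 22Rv1 were at least 2-fold higher. In PC3 28 of the 32 were below 0, with a median of -0.22, where 7199 of all 12898 genes used were below 0. In 22Rv1 20 of the 30 were below 0, with a median of -0.17, where 6765 of all 13337 genes used were below 0. Of the upstream list, 1 of 32 was at least 2-fold lower in PC3, RPS6KA5 (MSK1, a kinase of histone H3 and CREB). It was at 3.998 FPKM in treated and 9.05 FPKM in untreated PC3, with 1 added just past 2-fold (log2 change of -1.01). Of 11 used genes of AP-1 mRNA and protein turnover, 2 were at least 2-fold higher in PC3, both proteins that bind AU-rich elements and speed decay. ZFP36 was at 15.1 FPKM in treated and 2.14 FPKM in untreated PC3, and ZFP36L1 at 53.6 and 21.0 FPKM. ZFP36L2, also in the list, was lower in treated PC3, at 13.4 against 19.7 FPKM (log2 change of -0.52). Of the 11 genes, 7 were above 0 and 4 below in PC3. In 22Rv1 0 of 12 passed 2-fold, with a median of -0.24.

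**Figure D4:**
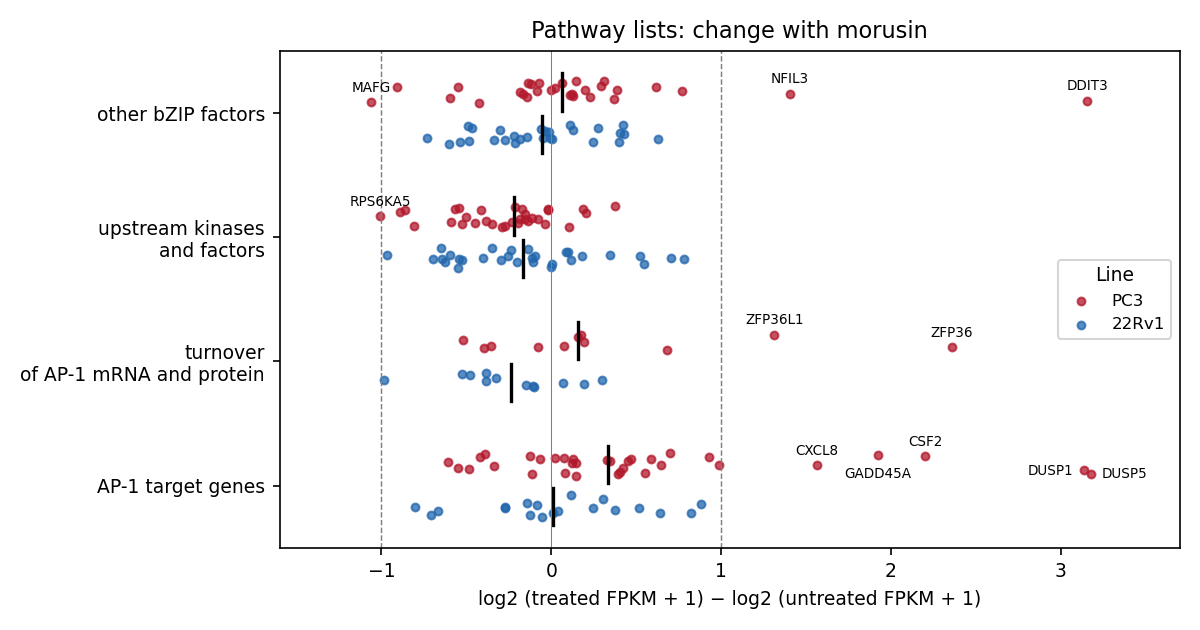
Log2 change with morusin of FPKM + 1 for the used genes of 4 pathway lists, 1 point per gene, PC3 above 22Rv1 in each list, with black bars at the list medians and dashed lines at 2-fold. All labelled genes, those past 2-fold, are PC3 values, and the AP-1 target median is 0.34 in PC3 and 0.01 in 22Rv1.

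For the 3 AP-1 genes with the widest range over the 4 libraries, the genes of nearest pattern were sought by the Euclidean distance of mean-centred log2 levels among 10447 others with at least 5 FPKM in a library, as a description over 4 libraries. FOSL1 was nearest to PLAU, the urokinase gene (distance 0.29), APOBEC3C (0.48) and PLAT, the tissue plasminogen activator gene (0.52). PLAU was at 434 FPKM in treated and 330 FPKM in untreated PC3 and at 0.286 FPKM in treated and 0.0161 FPKM in untreated 22Rv1. JUN was nearest to the heat-inducible chaperone genes HSPA1A (0.45) and DNAJB1 (0.70) and the metallothionein MT1X (0.84). HSPA1A, whose near-identical copy HSPA1B makes its reads hard to assign, was at 1439 FPKM in treated and 136 FPKM in untreated PC3 and at 389 FPKM in treated and 66.9 FPKM in untreated 22Rv1. FOS was nearest to MIR6859-1 (0.43), the metallothionein MT1F (0.44) and the small nuclear RNA RN7SK (0.45), which was at 14.6 FPKM in treated and 5.54 FPKM in untreated PC3 and at 55.4 FPKM in treated and 8.61 FPKM in untreated 22Rv1.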

How the data were processed

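Total RNA of 4 libraries was sequenced by HiSeq2500 in paired 150-base reads after TruSeq RNA v2 preparation, per the labels' protocols. Per the submitters' processing notes, Trimmomatic, HISAT2 and StringTie were used with build GRCh38. No source used here gives their versions, the annotation release or strand settings. For 60617 Ensembl genes the authors deposited FPKM values, 1 column per library, matched to the labels by column name. Symbols came from a gene name table (60261 IDs matched an entry, 42000 with a symbol), and the row with the highest mean was kept where a symbol was repeated. Positions, exons and lengths came from GENCODE 29 (GRCh38), promoters from RefSeq (GRCh38.p14).

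From the FPKM, log2 changes with 1 added were computed, with 2-fold as the threshold, without a count test. Depth was inferred from single-exon genes of 600 to 5000 bases, whose low values times length cluster at 1 read pair (tolerance 1.5%, 57 to 81 of 1385 to 1706 low values per library at the step, and 41 to 59 at a step smaller by a factor of 2). Read pairs per gene are this depth times FPKM and transcript length, and the errors from them cover counting error only. The shared response was tested with limma 3.58.1 in R 4.3.3, with a mean trend and Benjamini-Hochberg at 0.05. Genes that reached 1 FPKM in 2 or more libraries were tested, and the line paired the libraries by the labels. The test was also run on simulated data. That run cannot show whether the error holds for these libraries, whose lines differ in dose and medium. Python 3.11.15 with numpy 2.4.6 and pandas 2.3.3 was used. Nothing in the labels gives separate cultures within a group, so the limma p-values measure no spread between replicates. Their error rests on the difference between the changes of the lines, where dose and medium differ too, and on the other genes tested.

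The members and lists were chosen with earlier results of these data known. The genes named are the 9 members, up to 6 genes per list and line with the widest change past 2-fold, and 3 genes of nearest pattern for each of 3 members. ZFP36L2 was named in addition, beside ZFP36 and ZFP36L1. Alternatives were other added values, no filter, rescaled or median-centred libraries, no trend, no line term and each library left out.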

Additional observations from a re-analysis of the deposited data

Results flagged for a closer look

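Among the 9 AP-1 genes and the genes named from the 4 pathway lists, 3 that were used in both lines had changes of opposite sign in the lines, and these differences were not tested. ATF3 had a log2 change of 2.25 in PC3 and -0.009 in 22Rv1, the second within its counting error of 0. ZFP36 had 2.36 in PC3 and -0.10 in 22Rv1, the second also within its counting error (0.12) of 0. ZFP36L1 had 1.31 in PC3 and -0.39 in 22Rv1, the second with a counting error of 0.05.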

How the results depend on the processing

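Counts of AP-1 genes at least 2-fold higher with morusin were 4 in PC3 and 2 in 22Rv1 under each alternative except with 5 added to the FPKM, where they were 3 and 1. With 5 added, untreated PC3 led in 2 AP-1 genes, and in treated PC3 other bZIP factors had 1 higher and 0 lower and upstream genes 0 lower, as upstream genes also did after median centring. In treated 22Rv1, with 0.1 added, 1 AP-1 target was higher, 1 turnover gene lower and 2 upstream genes lower, and with rescaled libraries 1 turnover gene and 1 upstream gene were lower. The shared response called 2 AP-1 genes, 1 with 5 added, 0 without the filter, 4 with rescaled libraries (JUND and ATF3 added), and 0 with no replicate block, that is without the line term. Rescaling also called 301 genes higher and 1245 lower, against 46 and 33. The cause was not tested. Adding 5 called 18 and 15, no trend 27 and 24, no filter and no line term 0 each, with 2006 and 53 genes at an unadjusted p below 0.05. With 3 libraries, line and treatment leave no residual degrees of freedom, so treatment was the only term and a lone sample was assumed to vary like the rest; then 0 AP-1 genes were called without any 1 library. These fits mix line with treatment, and their mean changes ranged from -0.54 (-0.10 without untreated 22Rv1) to 1.42 for JUNB, -3.74 (-3.50 without untreated 22Rv1) to 4.87 for FOSL1, -1.50 to 0.77 (0.68 without treated 22Rv1) for FOSL2 and -0.31 to 1.15 for BATF3. Depth limits FOS, FOSB and, in 22Rv1, FOSL1.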
